A study of Mus musculus with 9 samples.

Results

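The 300 kb stretch of mouse chromosome 11 that carries Stat5b, Stat5a and Stat3 was examined in 9 ChIP-seq libraries from CD4+ T cells. The window runs from 100.55 to 100.85 Mb in the mm8 build, the build of the deposited files. The members were of 2 kinds and were taken inside it: the deposited peaks of the 6 Stat5a and Stat5b lists, and the 600 bins of 500 bp in which read 5′ ends were counted. The 6 lists held 78 peaks in the window out of 80628 in all, and peaks that overlapped by at least 1 bp were joined into 34 regions out of 43771. The 34 regions are numbered here from 1 to 34 in the order of their coordinates, and together they covered 19869 bp. The window was chosen with earlier results of these data in view, and the regions exist because a peak was called in at least 1 library. Excess over IgG inside them, and differences between stages or antibodies, are therefore given as a description.

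Each library came from cells at 8 h, at 13 h or after 2 rounds of Th2 differentiation, and at each stage chromatin was precipitated with an antibody to Stat5a, an antibody to Stat5b or control IgG. All 9 libraries came from mouse CD4+ T cells under Th2 differentiation. The labels name no strain, genotype or age. There was 1 library per antibody and stage, so the spread between animals or cultures is unknown and no p-value is given. Every interval below is the exact 95% interval of a ratio of read counts or of a share, and it covers counting error only. A ratio was called higher when its whole interval lay above 2 and lower when it lay below 0.5. In bulk chromatin, binding in fewer cells and less binding per cell cannot be told apart.

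Stat5a and Stat5b are 2 closely related transcription factors that become phosphorylated downstream of interleukin-2 and other cytokines, pair up, and bind DNA at palindromic sites in T cells. Stat3 belongs to the same family and acts downstream of interleukin-6, interleukin-10 and interleukin-21. In T cells Stat5 is known for its part in proliferation and in Th2 commitment, and Stat3 for its part in Th17 differentiation. The 3 genes are neighbours on chromosome 11.

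In the RefSeq gene table, which uses another build (GRCm38.p6), Stat5b and Stat5a lie next to each other and point away from each other, on the minus and the plus strand. Stat3 follows on the minus strand, so that Stat5a and Stat3 point towards each other. Ghdc precedes Stat5b, and the gene models Gm46295, Cavin1 and Atp6v0a1 follow Stat3. The mm8 annotation was not used here, so no region is assigned to a gene, an exon or a promoter. Because Stat5a and Stat5b are closely related, stretches that they share bear on whether a short read can be placed in one of them. The longest ungapped stretch in the best local alignment of their RefSeq promoters (the 250 bases before a start site) is shown for that reason, with the bases that differ in capitals, each 5′ to 3′ along its own gene in GRCm38.p6 (plus strand for Stat5a, minus strand for Stat5b).
Stat5a, chr11:100860412-100860472: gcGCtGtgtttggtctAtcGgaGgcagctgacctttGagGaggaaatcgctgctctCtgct
Stat5b, chr11:100822573-100822633: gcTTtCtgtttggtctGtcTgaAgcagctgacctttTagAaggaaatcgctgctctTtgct
The 2 stretches were identical at 52 of 61 positions (85.2%), with 9 differences and a longest identical run of 16 bases. That run is shorter than the 25 bp reads of these libraries, so within this stretch every read of that length spans at least 1 difference. Gene bodies and the joined regions were not compared, so read placement there was not tested. The GAS-type letters TTCNNNGAA, a palindrome that reads the same on both strands and is the usual core of a STAT site, occurred in 0 of the 5 RefSeq promoters of Stat5b, Stat5a and Stat3. They occurred in 7.02% of all 32851 promoter windows of the same length. The wider spacing TTCNNNNGAA was also in 0 of the 5 (5.85% of all). The form TTCCNNGAA, searched on both strands, is a narrower case of the first motif. Its 0 of the 5 (4.06% of all) therefore follows from the first result and adds nothing to it.

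The libraries held 3130228 to 9036070 reads, of which 61.0% to 74.1% had a start and strand of their own. The shallowest was Stat5a at 8 h, so its intervals are the widest. IgG reads were themselves dense in the window, at 156, 170 and 191 RPM (reads per 1000000 reads of the library) at 8 h, 13 h and after 2 rounds, against medians of 117, 118 and 112 RPM over 8539 windows of the same size. The window held more joined regions than all but 32 of those 8539, whose median was 2.

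In the whole window the Stat5a libraries held 228, 218 and 266 RPM at the 3 stages in order, and the Stat5b libraries 198, 263 and 387 RPM. The Stat5b library after 2 rounds was the highest of the 9, at 2.03 (1.90 to 2.18) times its IgG, and the other 5 ChIP libraries lay between 1.27 and 1.55 times theirs. Most of the difference was in the joined regions. There the Stat5a libraries held 67.1, 49.2 and 76.0 RPM, the Stat5b libraries 40.2, 76.7 and 149 RPM, and the IgG libraries 16.5, 18.6 and 14.5 RPM. In these summed regions Stat5b at 13 h stood at 1.91 (1.66 to 2.20) times its 8 h level, and after 2 rounds at 1.94 (1.76 to 2.13) times its 13 h level. Stat5a at 13 h stood at 0.734 (0.620 to 0.871) times its 8 h level, and after 2 rounds at 1.54 (1.35 to 1.76) times its 13 h level. None of these 4 intervals lay wholly past 2 or 0.5.

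**Figure D1:**
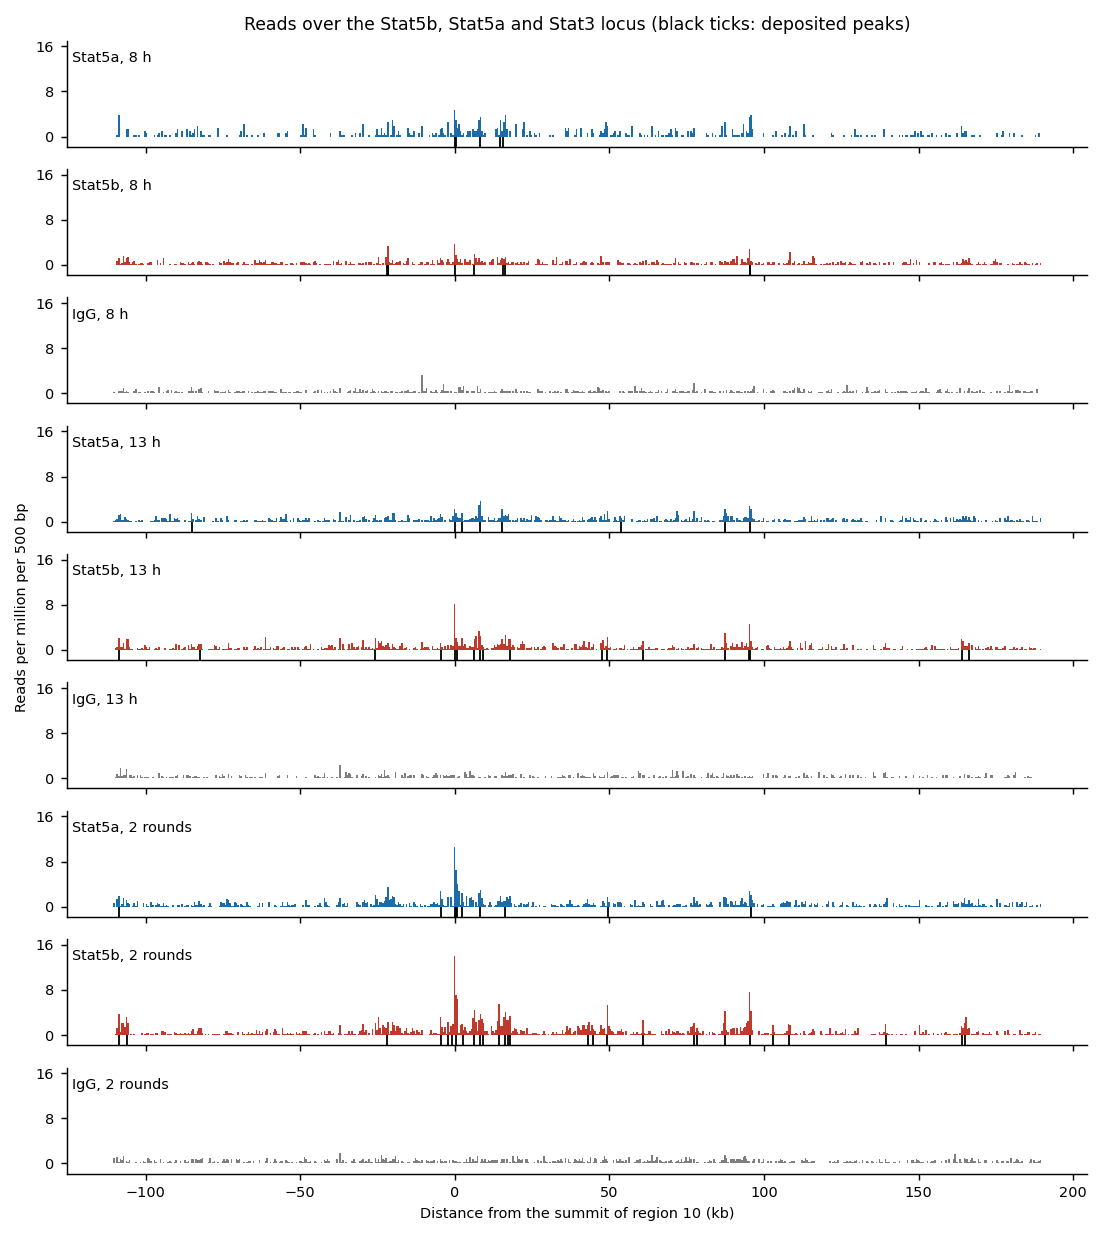
RPM in each 500 bp bin (vertical axis) against the distance from the summit of region 10 in kb (horizontal axis), 1 panel per library, with black ticks at the deposited peaks of that library. The highest column in both 2-round ChIP panels is at region 10, and the IgG panels have no column of that height.

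The Stat5b lists held 9 peaks in the window at 8 h, 18 at 13 h and 28 after 2 rounds. The Stat5a lists held 5, 8 and 10. Of the 34 regions, 17 were in 1 list, 6 in 2 lists, 8 in 3, 2 in 5 and 1 in all 6. A peak of the 2-round stage alone defined 11 regions (32.4%, against 48.0% of all joined regions), and a peak of 13 h alone defined 6 (17.6%, against 20.04% of all). Peaks at 13 h and after 2 rounds but not at 8 h defined 9 regions (26.5%, against 16.7% of all). Peaks at all 3 stages defined 4 regions (11.8%, against 8.59% of all), and 0 regions had an 8 h peak alone (3.55% of all). The lists differ in depth and length, so these patterns describe the lists and not a change in level.

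The regions were not spread evenly. Regions 7 to 18 lay within 22805 bp, chr11:100655611-100678415, with every gap to the next region under 10 kb. This dense group of 12 held between 47.5% and 61.6% of the reads in the 34 regions in the 6 ChIP libraries, and 33.3% to 41.4% in the IgG libraries. The widest empty interval, 56305 bp, separated regions 4 and 5.

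Region 10 had the highest mean level over the 6 ChIP libraries in the window and was the only one in all 6 peak lists. It was the highest in each ChIP library but Stat5a at 13 h, where regions 28 and 13 stood above it. It covers chr11:100659993-100661455 and ranked 442 among 43766 nuclear regions (those not on the mitochondrial sequence) by its mean level over the 6 ChIP libraries. Stat5a reads there stood at 9.26 RPM at 8 h, 4.57 RPM at 13 h and 21.07 RPM after 2 rounds. Stat5b reads stood at 6.41, 11.73 and 27.69 RPM, and IgG reads at 0.32, 0.93 and 0.86 RPM. Each ChIP library was above every IgG library. The lowest of the 6 ratios to IgG was 4.92 (2.17 to 13.0), for Stat5a at 13 h, and the highest was 32.0 (13.5 to 99.7), for Stat5b after 2 rounds. Stat5a at 13 h was no longer called when reads were counted once per start and strand, at 5.14 (1.94 to 17.1), and the other 5 were.

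From 8 h to 13 h the Stat5a ratio at region 10 was 0.494 (0.296 to 0.830) and the Stat5b ratio 1.83 (1.28 to 2.66), both with intervals that reach across the call limits. From 13 h to 2 rounds Stat5a rose 4.61 times (3.20 to 6.78), which was called higher, and also 3.47 times (2.18 to 5.67) when each start and strand was counted once. The Stat5b ratio over the same step was 2.36 (1.86 to 3.01), or 2.51 (1.81 to 3.53) counted once per start and strand, and neither was called. Whether the 2 antibodies differ here beyond the spread between cultures was not tested, as there are no replicates. Stat5b over Stat5a was 0.692 (0.423 to 1.15) at 8 h, 2.57 (1.76 to 3.82) at 13 h and 1.31 (1.06 to 1.64) after 2 rounds.

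These ratios rest on the scaling to library totals. When each pair of libraries was instead scaled by the median ratio of all joined regions, which was 1.90 and 2.58 for the 2 Stat5b steps and 0.547, 1.24 and 2.43 for Stat5b over Stat5a at the 3 stages, several turned direction. At region 10 the Stat5b steps became 0.964 (0.672 to 1.40) and 0.915 (0.722 to 1.17), and Stat5b over Stat5a became 1.26, 2.07 and 0.541 (0.435 to 0.674). The Stat5a rise from 13 h to 2 rounds was still called, at 3.68 (2.56 to 5.42). Region 10 alone carried 32.1% of the Stat5a excess over IgG in the window's regions after 2 rounds, where it ranked 149 among all nuclear regions by that excess. For Stat5b after 2 rounds it carried 19.98% and ranked 518.

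The densest points of the 6 ChIP libraries in region 10 fell within 110 bp of each other. At 13 h the deposited Stat5b list split the region into 2 peaks, chr11:100660169-100660682 and chr11:100660743-100661234. In the first, Stat5b reads stood at 4.81, 9.30 and 14.9 RPM at the 3 stages, and in the second at 0.874, 2.32 and 10.1 RPM. Stat5a reads stood at 6.39, 3.13 and 12.6 RPM in the first and at 2.24, 0.842 and 7.67 RPM in the second. The first peak therefore held 84.6% (69.5 to 94.1) of the Stat5b reads of both at 8 h, 80% (71.1 to 87.2) at 13 h and 59.7% (52.4 to 66.7) after 2 rounds. The Stat5b ratio of 2 rounds to 13 h was 4.33 (2.64 to 7.38) in the second peak, called higher, and 1.60 (1.20 to 2.15) in the first. For Stat5a both rose, by 4.04 (2.58 to 6.54) and 9.11 (4.12 to 23.8) times.

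These calls and shares depended on how the reads were counted. When reads of 1 start and strand were taken as 1, the first peak held 71.7% of the Stat5b reads at 13 h and 57.5% after 2 rounds, and the 2 intervals overlapped. The Stat5b ratio in the second peak was then 3.45 (1.89 to 6.66) and not called. The Stat5a ratio in the first peak was 2.76 (1.61 to 4.88), also not called, and in the second 9.02 (2.69 to 47.2). With the boundaries of the 2 peaks in the Stat5a 8 h list, the second peak's ratios of 2 rounds to 13 h were 3.78 (1.81 to 8.61) for Stat5b and 3.04 (1.20 to 8.66) for Stat5a, and neither was called. With those boundaries the Stat5b share went from 89.4% to 78.1% and the Stat5a share from 78.8% to 83.2%. These boundaries were compared after the values had been seen.

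**Figure D2:**
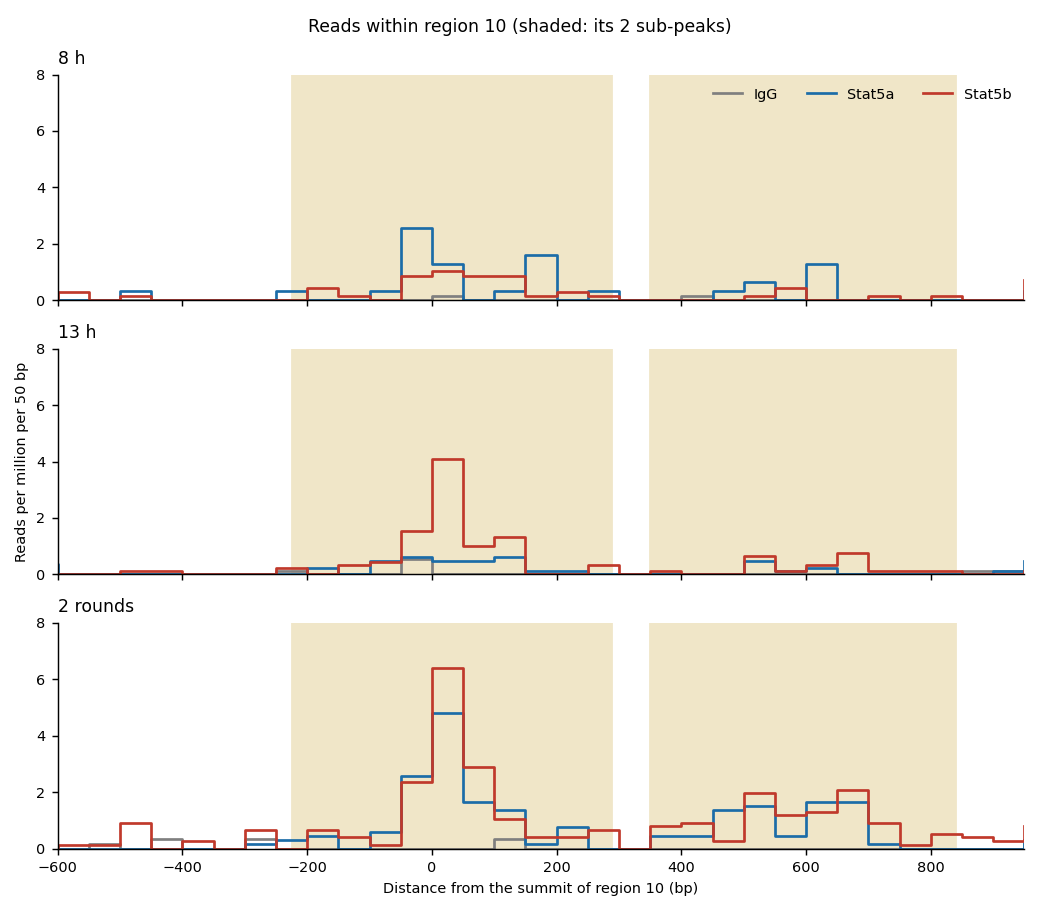
RPM in 50 bp steps (vertical axis) against the distance from the summit of region 10 in bp (horizontal axis) at the 3 stages, with Stat5a in blue, Stat5b in red and IgG in grey, and the 2 Stat5b peaks of 13 h shaded. The right-hand peak, where Stat5b held 0.874 and 2.32 RPM at 8 h and 13 h, held 10.1 RPM after 2 rounds.

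Region 28 was the second strongest, at chr11:100755158-100756432, and was in every list but Stat5a at 8 h. Stat5a reads stood at 7.35, 5.41 and 4.97 RPM at the 3 stages, Stat5b reads at 4.51, 6.75 and 13.7 RPM, and IgG reads at 0.320, 0.930 and 0.518 RPM. All 6 ChIP libraries were called higher than their IgG with all reads. In the count per start and strand, Stat5b at 8 h and Stat5a after 2 rounds were not, at 7.99 (1.93 to 70.7) and 6.05 (1.77 to 32.1). The Stat5a levels lay close together, with a ratio of 0.917 (0.567 to 1.47) from 13 h to 2 rounds. Stat5b over the same step gave 2.03 (1.47 to 2.83), not called. After 2 rounds Stat5b stood at 2.76 (1.85 to 4.22) times Stat5a, with the lower limit just under 2. Scaled by the median ratio, these 2 Stat5b values were 0.788 (0.569 to 1.10) and 1.14 (0.762 to 1.74).

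Region 13, chr11:100668161-100668861, differed from both. Stat5a reads there stood at 6.39, 4.93 and 5.42 RPM and Stat5b reads at 1.60, 4.98 and 5.75 RPM, with IgG at 0.961, 0.133 and 0 RPM. Only Stat5b at 8 h was not called higher than its IgG, at 1.67 (0.565 to 5.49), and it is the 1 list without a peak there. By start and strand, Stat5a at 8 h was not called either, at 5.004 (1.64 to 18.1). The Stat5b ratio of 13 h to 8 h was 3.11 (1.58 to 6.67), not called, and that of 2 rounds to 13 h was 1.15 (0.744 to 1.79). At 8 h Stat5b stood at 0.251 (0.109 to 0.549) times Stat5a, and at 13 h and after 2 rounds at 1.01 (0.646 to 1.58) and 1.06 (0.667 to 1.70). Scaled by the median ratio, the Stat5b step from 13 h to 2 rounds was 0.448 (0.289 to 0.694), and Stat5b over Stat5a after 2 rounds was 0.437 (0.275 to 0.698). The summits of the 6 ChIP libraries fell within 80 bp.

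Region 12, chr11:100666349-100667020, was in all 3 Stat5b lists and in no Stat5a list. Stat5b reads stood at 2.33, 2.10 and 6.53 RPM at the 3 stages, and Stat5a reads at 1.92, 0.722 and 0 RPM. IgG reads stood at 0.801, 0.532 and 0.346 RPM, and Stat5b was called higher than its IgG only after 2 rounds. After 2 rounds there were 50 Stat5b reads and 0 Stat5a reads, which is at least 14.5-fold higher at a floor of 3 reads for the Stat5a library. Counted once per start and strand it was 36 against 0, or 9.86-fold higher at that floor. Scaled by the median ratio, the value at the floor was 5.95-fold. Around the region the Stat5a library held 73 reads (10.99 RPM) in the 2000 bp on each side, against 99 (12.9 RPM) for Stat5b, and the stretch without a read was 779 bp long. With reads moved 75 bp downstream along their strand the library was not at 0 in the region, at 0.871 times its IgG. Whether the 0 comes from the chromatin or from the list of reads was not tested. Of the 8479 nuclear regions with at least 50 Stat5b reads after 2 rounds, 2 had no Stat5a read, and the median was 26. This count was made after the values of region 12 had been seen.

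**Figure D3:**
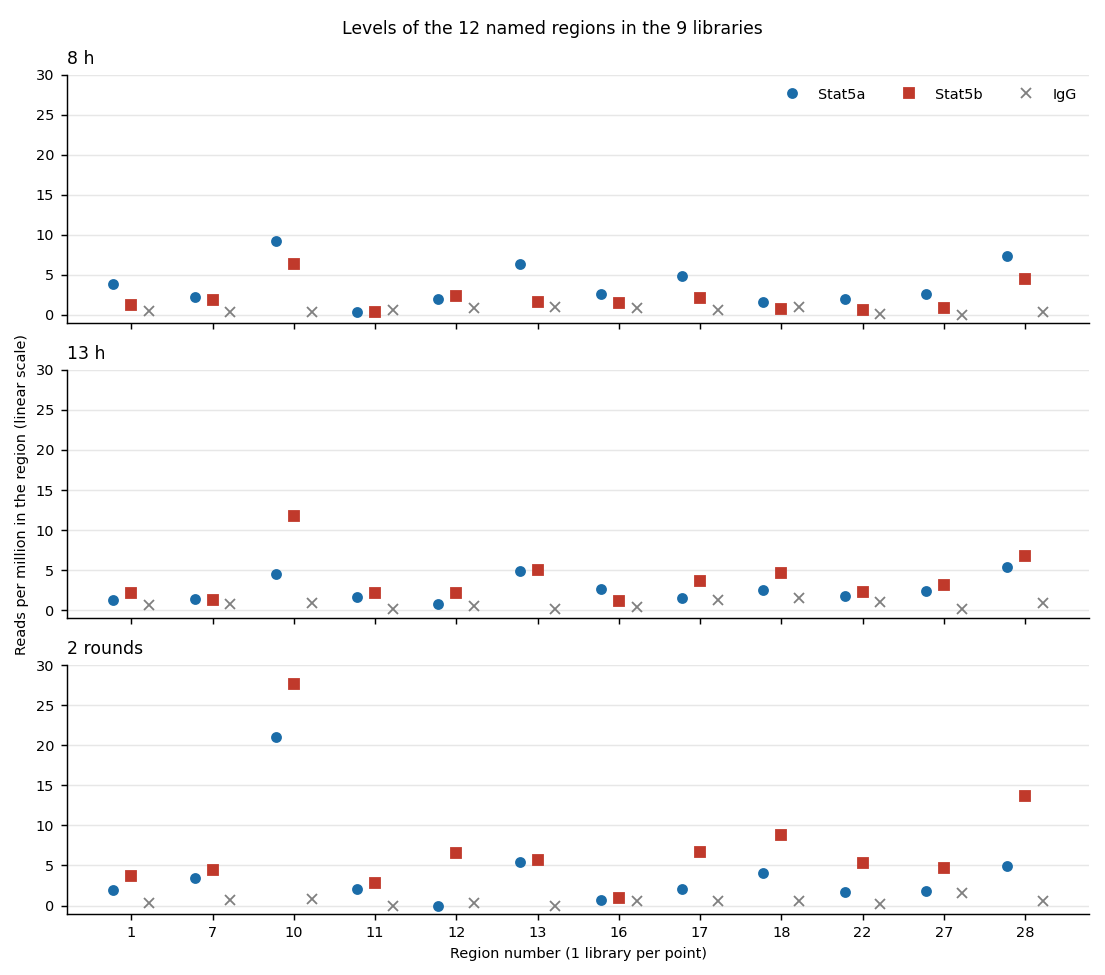
RPM (vertical axis, linear) in the 12 regions described by name, numbered on the horizontal axis, with 1 library per point and 1 panel per stage. Region 10 stands highest after 2 rounds at 21.07 RPM for Stat5a and 27.69 RPM for Stat5b, and Stat5a is at 0 in region 12.

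The other 8 regions picked by the same rule (a peak in 3 or more lists, or 1 of the 5 highest mean levels) stood between 0.291 and 8.75 RPM in the ChIP libraries. Region 18, chr11:100677098-100678415, rose for Stat5b from 0.728 RPM at 8 h to 4.65 RPM at 13 h, a ratio of 6.38 (2.53 to 20.7), and stood at 8.75 RPM after 2 rounds. That call was lost when reads were counted once per start and strand (5.61, 1.94 to 22.2) and with the median scaling (3.36, 1.33 to 10.9). IgG there stood at 0.961, 1.46 and 0.518 RPM, and only the 2-round ChIP libraries were called higher than IgG. Region 17 went the other way for Stat5a, from 4.79 RPM at 8 h to 1.56 RPM at 13 h, a ratio of 0.326 (0.143 to 0.735), not called. Region 11 had 1 Stat5a and 2 Stat5b reads at 8 h, and 14 and 19 at 13 h. Its ratios of 5.27 (0.802 to 223) and 7.22 (1.74 to 63.9) were not called at this depth. Region 22 reached 5.35 RPM for Stat5b after 2 rounds, 3.23 (1.63 to 6.98) times Stat5a. Region 27 had 1.56 RPM of IgG after 2 rounds, more than at 8 h or 13 h, and neither ChIP library of that stage was called higher there. Regions 1, 7 and 16, like regions 11, 17, 22 and 27, were not called in any of the 4 comparisons between stages.

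**Figure D4:**
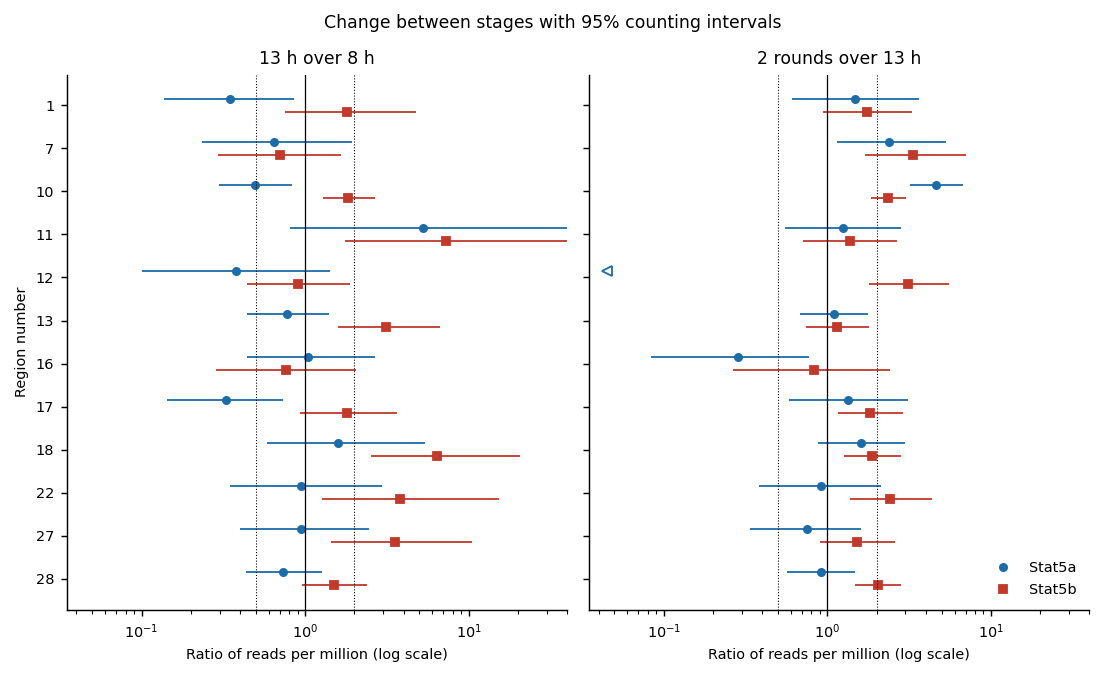
Ratio of RPM between successive stages (horizontal axis, log scale) for the 12 named regions (vertical axis), with Stat5a as circles, Stat5b as squares, and lines for 95% counting intervals. Dotted lines mark 0.5 and 2, the open triangle marks region 12, where Stat5a had 0 reads after 2 rounds, and region 10 is the one named region whose Stat5a interval for the later step lies wholly above 2.

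Over all 34 regions, the ChIP library was called higher than its IgG in 9 regions for Stat5a and 4 for Stat5b at 8 h, against 13.1% and 3.21% of all joined regions. At 13 h it was 4 for Stat5a (14.3% of all) and 7 for Stat5b (18.7% of all). After 2 rounds it was 7 for Stat5a (15.0% of all) and 21 for Stat5b (49.3% of all). These shares of the window were 26.5%, 11.8%, 11.8%, 20.6%, 20.6% and 61.8% in the same order. The regions were chosen with these libraries, so the counts support nothing further. Counted once per start and strand they were 2, 3, 2, 4, 2 and 15, against 5.98%, 1.45%, 3.84%, 9.67%, 7.04% and 33.9% of all joined regions. With all reads, regions 10 and 28 were called in all 6 libraries. The share of all joined regions called in all 6 is not given, so this describes the window only.

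Few regions changed past the call limits between stages. From 8 h to 13 h Stat5a was lower in 1 region (2.23% of all joined regions) and higher in 0 (0.297% of all). That region was number 8, with 5 reads at 8 h and 0 at 13 h, and it was also called higher after 2 rounds, with 10 reads, and both calls were lost in the count per start and strand. Stat5b was higher in 2 of 34 (5.58% of all), regions 5 and 18, and lower in 0 (0.321% of all). Region 5 went from 0 to 15 reads, or 3.80-fold higher with the 0 set to the floor of 3 reads. That call was lost in the same 2 ways as that of region 18. The only list with a peak in region 5 is Stat5b at 13 h, the library in which it is high. From 13 h to 2 rounds Stat5a was higher in 2 (7.79% of all), regions 8 and 10, and lower in 0 (4.03% of all).

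From 13 h to 2 rounds Stat5b was higher in 4 of 34 regions, 11.8% against 26.3% of all joined regions. These were regions 14 and 15 in the dense group, at 4.03 (2.08 to 8.43) and 4.0 (2.33 to 7.19) times, region 33 at 6.24 (2.75 to 16.6) times, and region 29, with 0 reads at 13 h and 14 after 2 rounds. Regions 29 and 33 have a peak in the Stat5b list of 2 rounds alone, so they exist only through the library in which they are high. Counted once per start and strand only region 29 was called (2.94% of the window, against 15.5% of all joined regions). With the median scaling none of the 4 was, against 3.98% of all. At region 33 IgG stood at 0.399 RPM at 13 h and 1.56 RPM after 2 rounds, and Stat5b after 2 rounds was not called higher than IgG there. The median ratio over the window's 33 regions with reads in both was 1.82, against 2.58 over all regions. The Stat5b call lower was in 1 region (0.668% of all), number 21, from 19 reads to 1. There 11 of the 19 reads shared 1 start, and counted once per start and strand the region was not called. The only list with a peak in region 21 is Stat5b at 13 h. The other 3 medians were 0.745 against 0.869 for Stat5a from 8 h to 13 h, 2.22 against 1.90 for Stat5b over that step, and 1.25 against 1.25 for Stat5a from 13 h to 2 rounds. Successive comparisons share the 13 h library.

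Between the antibodies, no region was called at 8 h, where Stat5b was higher in 0.0538% and lower in 4.26% of all joined regions. At 13 h Stat5b was higher than Stat5a in 2 regions (2.11% of all), at 4.60 (2.01 to 12.3) times in region 2 and with 16 reads against 0 in region 24. Neither was called once per start and strand, and with the median scaling only region 24 was. Both regions have peaks in Stat5b lists alone. At region 2 the IgG library of 13 h held 1.86 RPM, more than the 0.842 RPM of Stat5a. After 2 rounds Stat5b was higher in 1 of 34 regions, number 12, against 18.2% of all joined regions. The median of Stat5b over Stat5a after 2 rounds was nonetheless 2.41 in the window and 2.43 over all regions, and 31 of the 33 window regions with reads in both were above 1. At 8 h and 13 h the medians were 0.547 and 1.59 in the window, against 0.547 and 1.24. No region was called lower for Stat5b at 13 h (5.41% of all) or after 2 rounds (0.516% of all).

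Fixed bins count the same reads as the regions, so their calls are not independent of those of the regions. Of the 600 bins, 68 touched a joined region and 15 were called higher than IgG in at least 2 ChIP libraries, all 15 of them among the 68. Called in any library were 40 bins, 10 of them outside the regions, and none was called in all 6. The shares of all bins for these combined counts are not given, so the counts describe the window only. By library, 7 of the 28 bins with at least 10 reads (ChIP and IgG summed) were called for Stat5a at 8 h (13.2% of all such bins) and 5 of 43 for Stat5b (4.75% of all). At 13 h it was 8 of 80 for Stat5a (7.46% of all) and 13 of 117 for Stat5b (7.03% of all). After 2 rounds it was 11 of 75 for Stat5a (9.66% of all) and 28 of 131 for Stat5b (16.2% of all).

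For scale, the strongest nuclear region outside the window, chr9:107153387-107156833, held 94.6, 87.8 and 139 RPM of Stat5a at the 3 stages, 41.1, 119 and 322 RPM of Stat5b, and 6.09, 8.37 and 3.63 RPM of IgG. There Stat5b rose from 13 h to 2 rounds by 2.70 (2.52 to 2.91) times and Stat5a by 1.58 (1.44 to 1.75) times, the latter not called. At region 10 the corresponding values were 2.36 (1.86 to 3.01) for Stat5b and 4.61 (3.20 to 6.78) for Stat5a.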

How the data were processed

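Each library was deposited by the authors as a list of aligned reads, and each ChIP library also as a list of peaks, in mm8 as the names of the deposited files give it. The files have no header lines. No IgG peak list was used. Aligner, peak caller and read filters were not given in the sources used here, and only positions and strands were used. The series' design text mentions 22 lanes of data.

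Read 5′ ends were counted 1-based per 500 bp bin and per joined region, with all reads and again once per start and strand, and scaled to RPM (reads per 1000000 reads of the library). Some libraries hold 24 bp reads (38.0% to 77.3% in the Stat5a and IgG libraries of 13 h and 2 rounds), whose 5′ ends were moved 1 bp upstream. That offset was clear only in Stat5a at 13 h, where 14.3% of the 25 bp starts recurred 1 bp downstream, against 0.522% to 0.650% in the other 3. Ratios carry exact conditional 95% intervals (scipy 1.17.1). Background shares were computed over all joined regions or bins with reads to test. The interval and call rule was tested on simulated counts per region, with planted changes placed only in well-covered regions. The counting of reads was not simulated. Regions were named by the rule of a peak in 3 or more lists or 1 of the 5 highest mean ChIP levels. The members, lists and rules were chosen with earlier results of these data known. The alternatives were start-and-strand counting, 25 bp reads only, a 75 bp shift, pooled IgG, 1000 bp bins and 2 other scalings.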

Additional observations from a re-analysis of the deposited data

How the results depend on the processing

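No paired analysis was possible because each antibody and stage had 1 library, and for the same reason no library could be left out of a group. No called result changed direction under the alternatives run. Ratios that were not called did: scaled by the median ratio, Stat5b over Stat5a at region 10 was 1.26 at 8 h and 0.541 after 2 rounds. The Stat5a share of the first peak in region 10 fell from 78.8% at 13 h to 62.2% after 2 rounds with the Stat5b boundaries and went to 83.2% with the Stat5a ones. Ratios of the whole window to IgG moved with pooled IgG to 1.16 (Stat5b, 8 h), 1.55 (Stat5a, 2 rounds) and 2.26 (Stat5b, 2 rounds). With 25 bp reads only they were 1.56 and 1.73 for Stat5a and Stat5b at 13 h and 1.55 and 1.87 after 2 rounds, and with scaling to reads outside the regions Stat5b after 2 rounds was 2.42. For the change between stages, Stat5a from 8 h to 13 h was 0.914 with 25 bp reads only, and Stat5b from 13 h to 2 rounds was 2.22 with scaling to reads outside the regions.

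Regions called above IgG, with each start and strand counted once, were 2 for Stat5a at each stage and 4 for Stat5b at 13 h. With pooled IgG they were 8 and 13 for Stat5a and Stat5b at 13 h. With 25 bp reads only they were 4 for Stat5b at 13 h, and 3 and 2 for Stat5a and Stat5b after 2 rounds. The IgG library of 2 rounds then held 1315025 reads, the lowest depth of any library used under these alternatives.

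Stage calls were few and most depended on the counting. With each start and strand counted once, calls were also fewer over all joined regions. From 8 h to 13 h 0 were lower for Stat5a (0.576% of all) and 0 higher for Stat5b (1.2% of all). From 13 h to 2 rounds 1 was higher for Stat5a (2.6% of all). For Stat5b 1 was higher (15.5% of all) and 0 lower (0.0694% of all). With 25 bp reads only, 0 were lower for Stat5a from 8 h to 13 h. Scaled by the median ratio, Stat5b had 0 higher (0.37% of all) and 1 lower (region 6, 1.76% of all) from 8 h to 13 h. It had 0 higher from 13 h to 2 rounds (3.98% of all). With a 75 bp shift it had 0 lower from 13 h to 2 rounds. For Stat5b over Stat5a at 13 h the count higher was 0 by start and strand (0.153% of all joined regions). It was 1 with the shift and 1 by the median ratio (1.03% of all). After 2 rounds it was 2 higher with scaling to reads outside the regions and 1 lower by the median ratio (3.64% of all). Shares of all joined regions under the other alternatives are not given.

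With each start and strand counted once, fewer bins reached the 10 reads needed for a test. Called above IgG were 1 of 3 for Stat5a and 2 of 10 for Stat5b at 8 h (29.9% and 4.95% of all such bins). At 13 h it was 2 of 16 and 4 of 34 (7.89% and 11.9% of all). After 2 rounds it was 2 of 16 and 17 of 65 (14.9% and 22.7% of all). With 25 bp reads only, the bins called were 4 and 5 at 13 h and 1 and 4 after 2 rounds. With 1000 bp bins Stat5a after 2 rounds had 6. For all of these the cause was not tested.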

Other observations

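Reads on the 2 strands were mostly offset in the direction usual for fragments read from both ends. In 11 of the 12 named regions the median 5′ end of reverse reads lay downstream of that of forward reads in the 6 ChIP libraries together. The offset in these ran from 7 bp in region 11 to 155 bp in region 16. Counted once per start and strand it was 10 of 12, and region 16 was then at -32 bp. The exception with all reads was region 10, at -74.5 bp, which holds 2 peaks. Taken one at a time, its first peak gave an offset of 45 bp and its second 127 bp. In region 28 the offset was 84 bp and in region 13 it was 95.5 bp, both counted once per start and strand. In single libraries the sign varied. With all reads, Stat5b in region 7 was at -222.5 bp at 8 h and at 162 bp after 2 rounds.

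Region 6, chr11:100638346-100638924, fell outside the naming rule and was picked after its values had been seen. Its Stat5b level was 3.64 RPM at 8 h, 1.44 RPM at 13 h and 2.87 RPM after 2 rounds, and its Stat5a level 2.88, 1.20 and 4.06 RPM. IgG stood at 0.160, 0.664 and 0.346 RPM. Both antibodies were called above IgG at 8 h and after 2 rounds and neither at 13 h. Counted once per start and strand, only Stat5b at 8 h was still called, with 18 starts against 1 for IgG. The Stat5b ratio of 13 h to 8 h was 0.395 (0.186 to 0.802), and the Stat5a ratio of 2 rounds to 13 h was 3.38 (1.58 to 7.82). Scaled to library totals, neither was called. Scaled by the median ratio, the Stat5b step from 8 h to 13 h was called lower here, the 1 such region in the window (1.76% of all joined regions).

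Region 30, chr11:100768237-100768705, picked in the same way, was called above IgG in all 3 Stat5b libraries, with 20, 16 and 29 reads against 0, 1 and 0 for IgG. It was called in none of the 3 Stat5a libraries, which held 5, 5 and 7 reads. Its only deposited peak is in the Stat5b list of 2 rounds. Counted once per start and strand, Stat5b at 13 h had 7 starts against 1 for IgG and was not called. Stat5b over Stat5a was not called in region 30 at any stage. That ratio was 1.82 (0.664 to 6.22) at 8 h and 2.94 (1.03 to 10.3) at 13 h.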
